A study of Homo sapiens with 9 samples.

Results

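PHOX2A, HAND2, GATA2, GATA3, ISL1, TBX2, MYCN and MYC encode transcription factors of noradrenergic neuroblastoma cells. They were taken by name as a set of 8 genes, and all 8 were among the 14943 genes measured. RNA was sequenced from SH-Sy5y, an established human neuroblastoma cell line, after transfection with Lipofectamine of a mimic of the microRNA miR-1229-3p, in order to find its direct targets. Control cells (Ctrl.) had received 40 pmol of a negative control oligonucleotide and 0 pmol of mimic, 10 nM cells 20 pmol of each, and 20 nM cells 40 pmol of mimic and 0 pmol of the control oligonucleotide. All groups were harvested after 48 h, and each had 3 libraries (replicates 1 to 3). The control oligonucleotide fell as the mimic rose, so the effects of both on the 20 nM cells cannot be told apart. The study pooled the RNA of a pair of wells where possible, and the labels do not say whether replicates came from separate cultures. The p-values therefore measure the spread between these libraries, which may be technical.

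Noradrenergic neuroblastoma cells keep the identity of sympathetic neuroblasts through a small set of transcription factors that bind the enhancers of their own genes and of each other's, a core regulatory circuit. PHOX2A is a paired-type homeodomain factor, HAND2 is a basic helix-loop-helix factor, GATA2 and GATA3 are zinc finger factors, ISL1 is a LIM homeodomain factor and TBX2 a T-box factor. Their shared targets include the genes for making, storing and taking up noradrenaline. MYCN and MYC are oncogenic basic helix-loop-helix factors that bind DNA with MAX, and SH-Sy5y is known as a line without MYCN amplification. A second, mesenchymal state of neuroblastoma cells rests on other factors, among them AP-1 proteins.

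A microRNA lowers messenger RNAs that pair with its seed in the 3′ untranslated region (UTR). The mature sequence from RefSeq is shown with its seed, bases 2 to 8 from the 5′ end, in capitals, because it sets which letters were looked for in the factors' transcripts.
hsa-miR-1229-3p: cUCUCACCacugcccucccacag
It lies on chromosome 5 from 179798278 to 179798300 on the minus strand (GRCh38.p14). The longest annotated 3′ UTR of each gene (GENCODE 44, GRCh38.p14) was searched on the transcript strand for GGTGAGAA (8mer), GGTGAGA or GTGAGAA (7mers) and GTGAGA (6mer), which lie within one another, and a gene was given its longest match. No match was found for 7 of the 8 factors, PHOX2A (672 bases searched), HAND2 (1186), GATA2 (1592), GATA3 (1175), ISL1 (1120), TBX2 (960) and MYCN (910). MYC had an 8mer at base 702 of its 1993-base 3′ UTR and a 7mer at base 710, directly after it. Both lay in 1 of 12 coding transcripts of MYC, whose annotated 3′ UTRs ran from 0 to 1993 bases. Of 13777 genes with a 3′ UTR of at least 50 bases, 22.6% held an 8mer or 7mer and 38.4% any match.

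Among genes of the same circuit, SOX4, SOX11 and the noradrenaline transporter gene SLC6A2 held a 7mer. Their 7mer sites are shown with the match in capitals, since these genes, described further on, had lower RNA at 20 nM and held a 7mer. JUN and TBX3, also described as lower, held only a 6mer. Sites were seen in genes with higher values at 20 nM too, a 6mer in DLK1 and MLX and a 7mer in ISL2, which did not pass the test. SOX11 was chosen for display after its values were seen.
SOX4: gaaatcagtgaGGTGAGActtcccagacc
SOX11, upstream site: cggggctgcggGGTGAGAggaagaaagca
SOX11, downstream site: atgagtgcgttGTGAGAAtcatcttaatg
SLC6A2, upstream site: ttggagggcagGGTGAGAcaagcagccca
SLC6A2, downstream site: cccatttcccaGGTGAGAgaaccaaggcc
The match lies at chr6:21596873-21596879 for SOX4 and at chr2:5696746-5696752 and chr2:5698177-5698183 for SOX11. For SLC6A2 it lies at chr16:55703456-55703462 and chr16:55704277-55704283. All are in the 3′ UTR on the plus strand (GRCh38.p14), and a match describes letters and not a bound site.

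Libraries held 17.4 to 28.2 M estimated counts. One library, 20 nM replicate 3, stood apart at 47.4 along the main axis of variation (30.4% of all variance), on which the remaining 8 ran from -17.1 to 7.72. Levels are given as CPM, counts relative to the library total, scaled by TMM, which evens out library composition. Fold changes come from edgeR's quasi-likelihood test over all 9 libraries with surrogate variables, fitted terms for variation that the groups leave unexplained, so that a fold change can differ from the ratio of mean CPM. Adjusted p is by Benjamini-Hochberg over 14943 genes, with a threshold of 0.05. Both mimic groups were compared with the same 3 controls, so these comparisons are not independent. In bulk RNA, fewer cells of a kind and less RNA per cell cannot be told apart.

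The noradrenergic label was checked by fixed markers in the controls. DBH, the enzyme that makes noradrenaline from dopamine, was at 1510 ± 127 CPM, CHGB, a granule protein, at 301 ± 62.9 CPM, and STMN2, a neuronal tubulin-binding protein, at 654 ± 33.5 CPM (SD, n = 3). TH, the first enzyme of catecholamine synthesis and a defining marker, was close to 0, at 0.598 ± 0.0339 CPM. Of 20 markers of fibroblasts, Schwann cells, blood cells, endothelium and epithelium, 13 were measured, and the other 7 were not analysed here. Their summed level was 221 to 290 CPM in Ctrl., 218 to 293 CPM at 10 nM and 195 to 271 CPM at 20 nM. Most of it came from fibroblast genes, PDGFRB at 123 ± 12.1 CPM and COL3A1 at 39.9 ± 13.7 CPM in the controls (n = 3), while epithelial CDH1 and KRT18 stood at 0.366 and 0.276 CPM.

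In the control cells, transfected with the control oligonucleotide and no mimic, HAND2 and PHOX2A were the most abundant of the 8 factors per transcript length. In the controls, HAND2 was at 420 ± 35.9 CPM per kilobase of its longest annotated transcript and PHOX2A at 400.1 ± 21.1 CPM per kilobase (SD, n = 3), ranks 83 and 87 of 14859 genes with a length. Their ranges over the 3 libraries overlapped. GATA2 followed at 295 ± 2.90 CPM per kilobase, GATA3 at 151 ± 15.4 CPM per kilobase and ISL1 at 94.96 ± 4.14 CPM per kilobase. TBX2 was at 54.7 ± 3.67 CPM per kilobase, MYC at 25.7 ± 3.45 CPM per kilobase and MYCN at 1.81 ± 0.208 CPM per kilobase, rank 11429. Apart from HAND2 and PHOX2A, neighbours in this order did not overlap. Whether strand was used in counting is not stated, so reads of a factor and of an annotated gene on the other strand that shares exon bases with it cannot be told apart. In GENCODE 44, HAND2 shares 867 of its 3601 exon bases with HAND2-AS1, GATA2 78 of 4915 with GATA2-AS1 and MYCN 98 of 2755 with MYCNOS. PHOX2A, TBX2 and MYC share 71, 28 and 194 exon bases with such a gene, and GATA3 and ISL1 share 0.

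**Figure D1:**
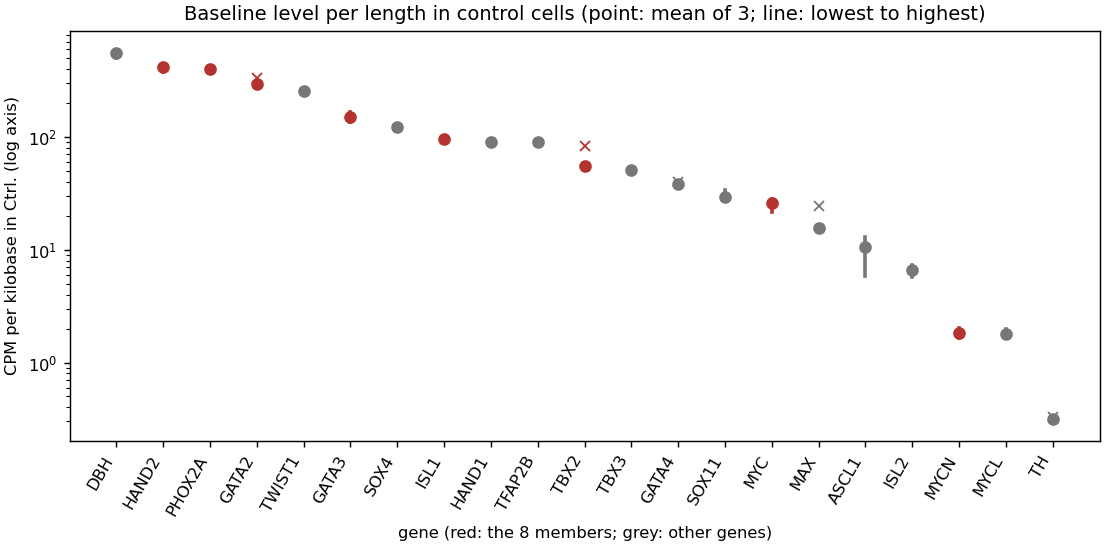
Level per transcript length in the 3 Ctrl. libraries, in CPM per kilobase on a log axis, for the 8 factors (red) and related genes (grey); points are means, lines run from the lowest to the highest library, and crosses use the length of the canonical transcript where it differs. HAND2 and PHOX2A stand at 420 and 400.1 CPM per kilobase, and MYCN lies below MYC by a ratio of 14.2.

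The ratio between neighbours was 1.36 from PHOX2A to GATA2, 1.95 from GATA2 to GATA3, 1.59 from GATA3 to ISL1, 1.74 from ISL1 to TBX2, 2.13 from TBX2 to MYC and 14.2 from MYC to MYCN. With the length of the canonical transcript instead, TBX2 was at 83.2 and GATA2 at 331 CPM per kilobase, and the ratio of ISL1 to TBX2 was 1.14. Some factors also stood above close relatives. Per kilobase, HAND2 was 4.65 times as abundant as HAND1, GATA3 3.92 times as GATA4 and ISL1 14.5 times as ISL2. TBX2 and TBX3 had a ratio of 1.07, or 1.62 with canonical lengths. MYCN and its relative MYCL were both low, with a ratio of 1.01.

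**Figure D2:**
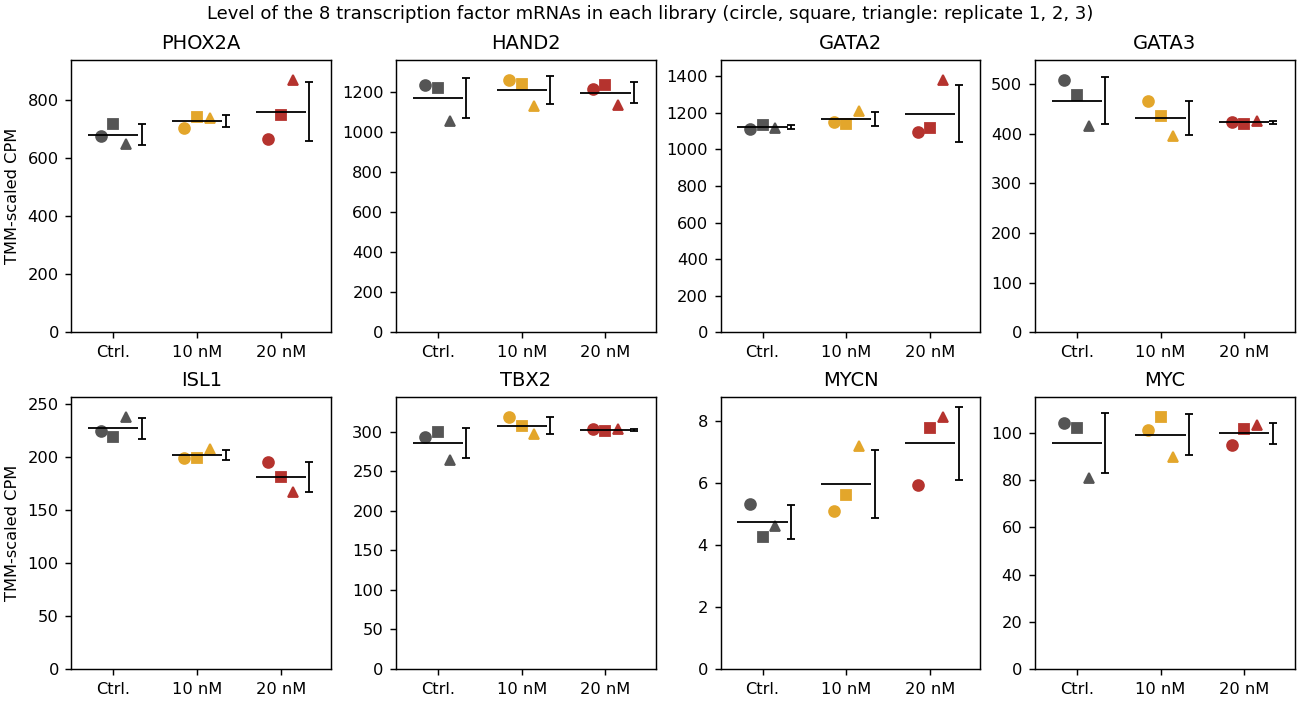
TMM-scaled CPM of each factor in every library, by group, with a horizontal line at the group mean and an error bar of 1 SD (n = 3); marker shapes give the replicate number and each axis starts at 0. The 3 groups are fully separated for ISL1, from 219.0 to 238.3 CPM in Ctrl. down to 167.2 to 195.7 CPM at 20 nM.

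ISL1 fell with the mimic. ISL1, on chromosome 5 from 51383448 to 51394730 (plus strand), is required in developing sympathetic neurons. It measured 224.7, 219.0 and 238.3 CPM in Ctrl. replicates 1 to 3, 199.6, 199.1 and 207.6 CPM at 10 nM, and 195.7, 181.4 and 167.2 CPM at 20 nM. Every 10 nM library lay below every control and every 20 nM library below every 10 nM library, an order without overlap that 1.64% of all genes had in this direction. At 20 nM the change was -0.27 ± 0.055 on the log2 scale (SE, 95% interval -0.38 to -0.15), a fall of 16.8%, with an edgeR adjusted p of 0.00717. Over both mimic groups, 6 of 6 libraries lay below the control of the same number. Such counts, here and below, use every control for both mimic groups, so their comparisons are not independent. The share of all genes with 6 of 6 was not computed. At 10 nM it was -0.15 ± 0.048 (interval -0.26 to -0.05), with an unadjusted p of 0.00724 and an adjusted p of 0.172, which did not pass. The step from 10 to 20 nM was -0.11 (interval -0.22 to 0.00, adjusted p = 0.343). Over concentration as a number, the change per 20 nM was -0.29 ± 0.052 with an adjusted p of 0.00211. Without 20 nM replicate 2, the adjusted p at 20 nM was 0.0512 and the change -0.25. Over the 19 alternatives it ran from 1.66e-05 to 0.0512.

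MYCN was the scarcest of the factors and the only other member whose concentration trend passed. MYCN, on chromosome 2 from 15940550 to 15947007 (plus strand), is the neuroblastoma oncogene of the MYC family. It measured 5.34, 4.27 and 4.62 CPM in Ctrl., 5.10, 5.63 and 7.20 CPM at 10 nM, and 5.94, 7.78 and 8.14 CPM at 20 nM, from 79 to 201 counts per library. The 20 nM libraries lay above all controls, whereas the 10 nM libraries overlapped both groups. The trend was 0.50 ± 0.16 per 20 nM on the log2 scale (interval 0.15 to 0.85), a rise of 41.6%, with an adjusted p of 0.0489. It passed in 8 of 18 alternatives, 1 of which (filterByExpr left out) repeats the reported fit. Their adjusted p ran from 0.00607 to 0.211. It failed without Ctrl. replicate 2 (0.103), Ctrl. replicate 3 (0.153), 10 nM replicate 1 (0.0521), 20 nM replicate 2 (0.211) or 20 nM replicate 3 (0.0501).

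At 20 nM against Ctrl., MYCN differed by 0.47 ± 0.18 (interval 0.08 to 0.85), with an unadjusted p of 0.0209 and an adjusted p of 0.103. With a replicate block, a term for the replicate number fitted instead of surrogate variables, it was 0.60 with an adjusted p of 0.0421, and without 20 nM replicate 3 it was 0.52 with an adjusted p of 0.0454. Over the 19 alternatives this p ran from 0.0165 to 0.467. At 10 nM the value was 0.28 (interval -0.07 to 0.63, adjusted p = 0.465).

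MYC, on chromosome 8 from 127735434 to 127742951 (plus strand), was the only factor with seed matches. It measured 104.1, 102.0 and 80.9 CPM in Ctrl., 101.3, 106.8 and 89.6 CPM at 10 nM, and 94.9, 101.5 and 103.4 CPM at 20 nM. The groups overlapped, and 3 of 6 mimic libraries lay below the control of the same number. The change was 0.05 at 10 nM (interval -0.14 to 0.25, adjusted p = 0.834) and 0.06 at 20 nM (interval -0.17 to 0.28, adjusted p = 0.785). The sign at 20 nM was negative without Ctrl. replicate 3 (-0.07).

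PHOX2A and HAND2 specify the noradrenergic fate of sympathetic precursors, and neither passed the test. PHOX2A (chromosome 11, 72239077 to 72245664, minus strand) measured 675.7, 717.5 and 646.0 CPM in Ctrl., 702.3, 740.1 and 736.4 CPM at 10 nM, and 663.0, 745.7 and 866.5 CPM at 20 nM. Its highest value was in 20 nM replicate 3, the library that stood apart. The PHOX2A change was 0.06 at 10 nM (interval -0.05 to 0.17, adjusted p = 0.616) and 0.03 at 20 nM (interval -0.10 to 0.15, adjusted p = 0.825). HAND2 (chromosome 4, 173524969 to 173530229, minus strand) measured 1234, 1218 and 1054 CPM in Ctrl., 1259, 1238 and 1132 CPM at 10 nM, and 1215, 1237 and 1138 CPM at 20 nM. In each group replicate 3 of HAND2 was the lowest, and the groups overlapped. Its change was 0.07 at 10 nM (interval -0.06 to 0.19, adjusted p = 0.653) and 0.09 at 20 nM (interval -0.05 to 0.24, adjusted p = 0.402).

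GATA2 and GATA3 act together in sympathetic neuron development. GATA2 (chromosome 3, 128479427 to 128493201, minus strand) measured 1112, 1133 and 1116 CPM in Ctrl., 1150, 1140 and 1209 CPM at 10 nM, and 1093, 1118 and 1378 CPM at 20 nM. Again 20 nM replicate 3 was the highest library, and the other 20 nM libraries lay within or below the controls. The GATA2 change was 0.02 at 10 nM (adjusted p = 0.824) and -0.04 at 20 nM (interval -0.14 to 0.05, adjusted p = 0.603). GATA3 (chromosome 10, 8045378 to 8075198, plus strand) measured 507.9, 477.7 and 414.9 CPM in Ctrl., 465.2, 435.2 and 395.4 CPM at 10 nM, and 424.8, 418.8 and 425.2 CPM at 20 nM. In 5 of 6 comparisons GATA3 was below the control of the same number, and Ctrl. replicate 3 lay among the mimic libraries. Its change was -0.11 at 10 nM (interval -0.26 to 0.05, adjusted p = 0.537) and -0.12 at 20 nM (interval -0.30 to 0.06, adjusted p = 0.385).

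TBX2, a T-box repressor on chromosome 17 (61399843 to 61409466, plus strand), measured 293.6, 299.4 and 263.7 CPM in Ctrl., 318.6, 307.2 and 297.0 CPM at 10 nM, and 303.1, 300.4 and 302.8 CPM at 20 nM. All 6 mimic libraries lay above the control of the same number. The change was 0.11 at 10 nM (interval 0.00 to 0.22, unadjusted p = 0.0477, adjusted p = 0.352) and 0.09 at 20 nM (interval -0.03 to 0.22, adjusted p = 0.329).

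**Figure D3:**
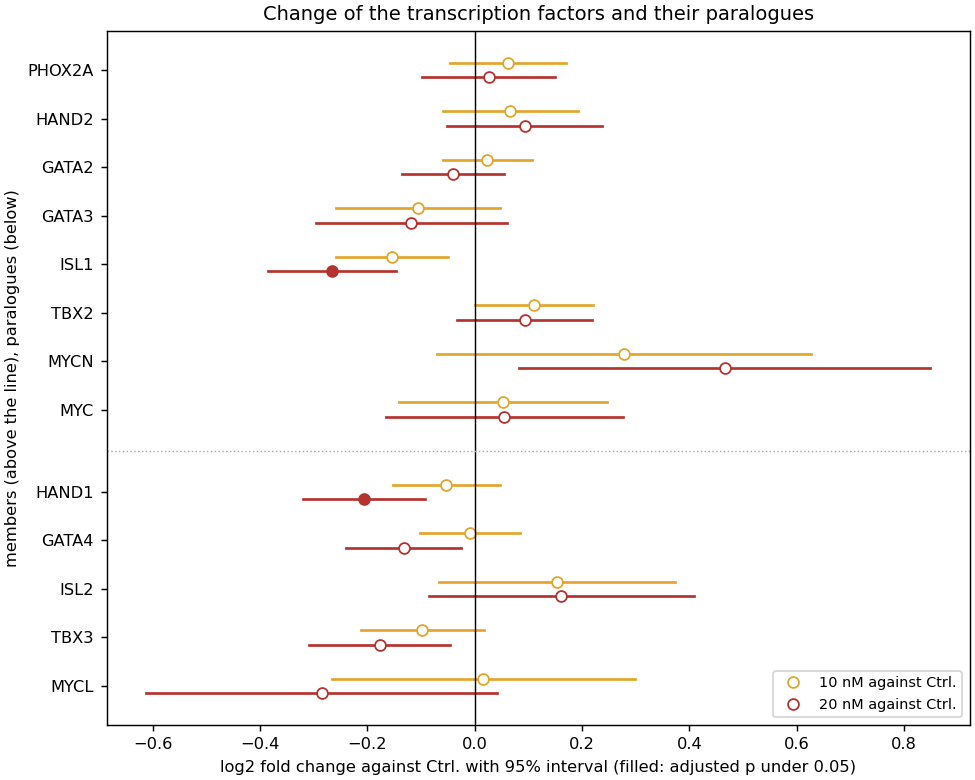
Log2 fold change against Ctrl. with its 95% interval for the 8 factors and 5 of their paralogues, at 10 nM (yellow) and 20 nM (red), with filled points for an adjusted p under 0.05. ISL1 at 20 nM (-0.27) is the only filled point among the 8 factors, and HAND1 is filled below the line.

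At 20 nM the 8 factors passed the test about as often as genes at large. At 10 nM 0 of 8 passed, against 0.649% of all genes. An unadjusted p under 0.05 was held by 2 of 8 there, against 2084 of all 14943 genes. At 20 nM 1 of 8 (12.5%) passed, against 13.9% of all genes. It was lower, as 6.08% of all genes were, while 7.8% were higher. In the concentration trend 2 of 8 (25%) passed, against 17.5%, 1 of them lower (7.69% of all genes) and 1 higher (9.84%). Between 20 and 10 nM 0 of 8 passed, against 2.79%, and 0 had an unadjusted p under 0.05, against 2220 of 14943 genes. The DESeq2 Wald test called 0 of the 7 factors with an adjusted p at 10 nM and 0 of 8 between 20 and 10 nM. The median change of the factors at 20 nM was 0.04 on the log2 scale, against -0.00016 over all genes. In CPM without overlap with the controls, ISL1 was lower at 20 nM (13.7% of all genes) and TBX2 and MYCN higher (15.2%), while at 10 nM ISL1 was lower (9.87%) and GATA2 higher (10.1%). Without 20 nM replicate 3, 2 of 8 passed at 20 nM, and without 20 nM replicate 2, 0 of 8.

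**Figure D4:**
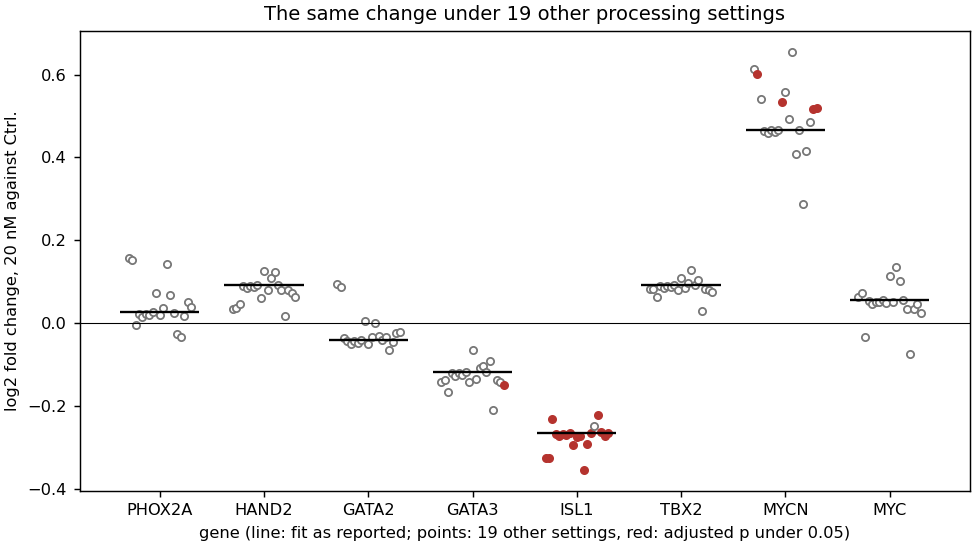
Log2 fold change of each factor at 20 nM against Ctrl. in the fit as reported (line) and under 19 other processing settings (points, red where the adjusted p is under 0.05). ISL1 stays below 0 in each, from -0.35 to -0.22, and passes in 18 of 19, whereas MYCN runs from 0.29 to 0.65 and passes in 4 of 19. Of the 19 settings, 1 (filterByExpr left out) repeats the reported fit.

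Of the 10 listed paralogues, 7 were measured. At 20 nM 1 of these 7 passed (14.3%, against 13.9% of all genes). It was HAND1, and the median change of the 7 was -0.18 on the log2 scale. With the replicate block the count was also 1, but it was TBX3, a T-box repressor, at -0.19 (adjusted p = 0.0480), against -0.18 (adjusted p = 0.0727) without it. The count was 0 without 20 nM replicate 1 or Ctrl. replicate 3, 2 without 10 nM replicate 1 or 10 nM replicate 3, and 3 without 20 nM replicate 3. HAND1 had a mean of 154 CPM in all 3 groups and a modelled change of -0.21 (adjusted p = 0.0204), which was -0.01 with the block (adjusted p = 0.914) and did not pass without 20 nM replicate 1 or Ctrl. replicate 3 (highest adjusted p 0.235). In 20 nM replicate 3, HAND1 was at 185.5 CPM, against 132.7 and 142.6 CPM in the other 20 nM libraries.

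TBX3, the T-box factor closest to TBX2 by family, was lower than the control of the same number in 6 of 6 libraries, with means of 243 ± 9.75, 226 ± 14.9 and 212 ± 6.41 CPM in Ctrl., 10 nM and 20 nM (SD, n = 3). Its change at 20 nM was -0.18 (adjusted p = 0.0727), and -0.19 with the block (adjusted p = 0.0480) or -0.20 without 20 nM replicate 3 (adjusted p = 0.00983). It also passed without 10 nM replicate 1 or 10 nM replicate 3. GATA4 (-0.13, adjusted p = 0.0974, or 0.0498 without 20 nM replicate 3), MYCL (-0.29, 0.243) and ISL2 (0.16, 0.393) did not pass. GATA5 (1.24 CPM in Ctrl.) and TBX4 (1.07 CPM) were too low for more than wide intervals, 0.14 to 1.56 and -1.21 to 0.45 at 20 nM.

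Of 28 other noradrenergic transcription factors, 25 were measured, and at 20 nM 3 rose and 6 fell, 36% against 13.9% of all genes. Their median change was -0.10 on the log2 scale. This list, like the others, was chosen with earlier results of these data known, so its share is not independent of those results. With the replicate block 1 rose and 6 fell, 28% against 13.6% of all genes, and without 20 nM replicate 3 it was 3 and 8. Without 20 nM replicate 2, 5 passed, and without Ctrl. replicate 3, 6 passed. Without surrogate variables or block 0 rose and 2 fell, 8% against 6.38% of all genes. The share was thus above that of all genes with surrogate variables or the block, and near it with neither. SOX4, an HMG-box factor of neuroblasts, fell in order over the groups without overlap, with 606.9, 626.8 and 567.6 CPM in Ctrl., 534.6, 549.7 and 517.2 CPM at 10 nM, and 410.3, 453.7 and 485.9 CPM at 20 nM. Its change at 20 nM was -0.48 ± 0.060 (adjusted p = 0.000266), the smallest p of this list. SOX11, its close relative and chosen after its values were seen, measured 306.0, 246.8 and 247.0 CPM in Ctrl. and 200.3, 175.3 and 199.0 CPM at 20 nM (-0.47, adjusted p = 0.00969). INSM2, a zinc finger factor, measured 94.8, 89.3 and 111.3 CPM in Ctrl., 82.3, 85.6 and 107.7 CPM at 10 nM, and 72.2, 76.9 and 98.1 CPM at 20 nM, below the control of the same number in 6 of 6 libraries. Its change at 20 nM was -0.46 ± 0.094 (adjusted p = 0.00631), and -0.26 with the block (adjusted p = 0.0234). LMO3, a LIM-only adaptor, rose by the model (0.41, adjusted p = 0.00121) but not with the block (0.22, adjusted p = 0.146), being at 28.3 CPM in 20 nM replicate 3 against 39.8 and 39.4 CPM in the other 20 nM libraries.

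The noradrenergic output genes moved in both directions. Of 20 listed, 19 were measured. At 20 nM 3 rose and 5 fell (42.1%, against 13.9% of all genes), with a median change of -0.01. With the block 7 rose and 4 fell (57.9%, against 13.6% of all genes), and without 20 nM replicate 1, 5 passed. DDC, which makes dopamine from L-DOPA, rose without overlap between the groups, which 2.16% of all genes did, with means of 132.9 ± 13.01, 164 ± 10.7 and 197 ± 16.2 CPM in Ctrl., 10 nM and 20 nM (SD, n = 3; 0.46 ± 0.067, adjusted p = 0.000742). DLK1, a membrane protein related to Notch ligands, rose from 533 ± 40.9 CPM to 824 ± 132 at 20 nM (0.45, adjusted p = 0.00146). SLC6A2, the noradrenaline transporter, measured 858.3, 793.4 and 893.1 CPM in Ctrl., 716.9, 671.8 and 772.2 CPM at 10 nM, and 641.8, 612.6 and 743.0 CPM at 20 nM. All 6 mimic libraries of SLC6A2 lay below all controls (-0.45 ± 0.066, adjusted p = 0.000761). Of all genes, 13.7% had every 20 nM library below all controls and 9.87% every 10 nM library, and the share with both was not computed. DBH was higher than its same-numbered control in 6 of 6 libraries, and its change at 20 nM was 0.10 (adjusted p = 0.428), or 0.25 with the block (adjusted p = 0.0196).

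**Figure D5:**
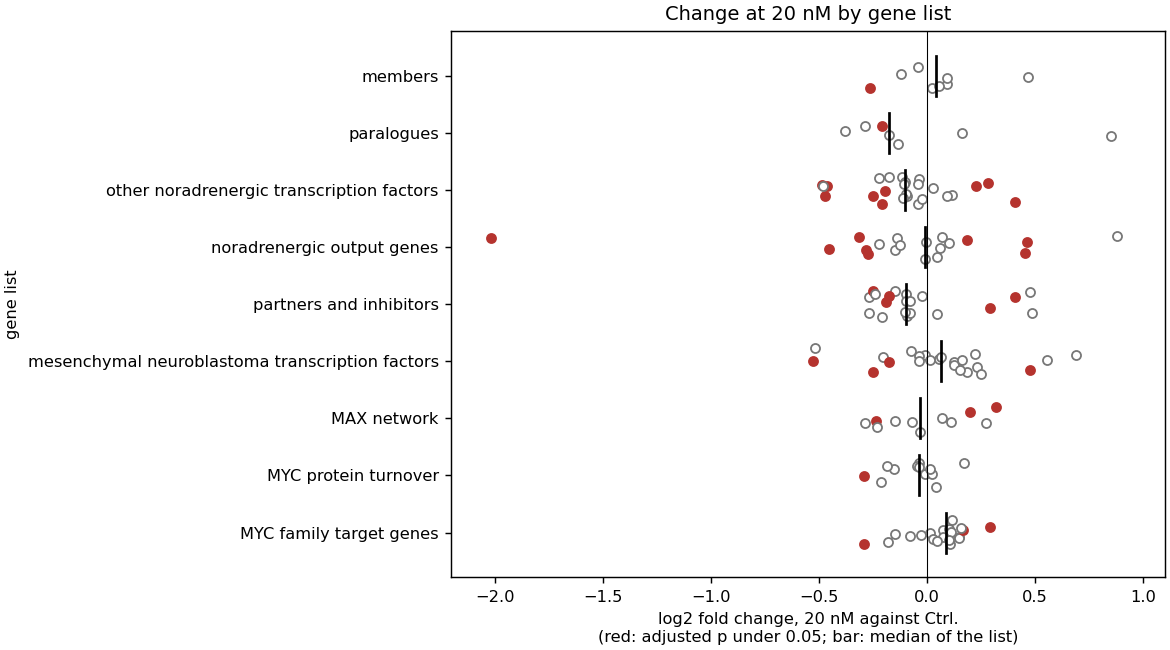
Log2 fold change at 20 nM against Ctrl. of every measured gene in the factors' set and in 8 related lists, 1 point per gene (vertical position within a list is arbitrary), red where the adjusted p is under 0.05, with a bar at the list median. The median is -0.18 for the paralogues, -0.10 for the other noradrenergic factors and 0.06 for the mesenchymal factors; the point at -2.02 is TH, which has under 1 CPM.

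Of 28 mesenchymal factors, 23 were measured. At 20 nM 1 rose and 3 fell (17.4%, against 13.9% of all genes), with a median of 0.06. The count was 2 with any of Ctrl. replicates 1 and 3 and 20 nM replicates 1 and 2 left out. JUN, a subunit of AP-1, was lower than the control of the same number in 6 of 6 libraries, with 58.0, 52.2 and 67.2 CPM in Ctrl. and 40.7, 45.3 and 66.9 CPM at 20 nM (-0.52, adjusted p = 0.00393), and -0.23 with the block (adjusted p = 0.126). ID1 and ID3 dimerise with basic helix-loop-helix proteins and keep them from DNA. ID1 had means of 128 ± 4.94, 129 ± 1.98 and 105 ± 4.17 CPM in Ctrl., 10 nM and 20 nM (-0.25, adjusted p = 0.00445), and ID3 of 136 ± 3.998, 140.3 ± 5.72 and 119 ± 1.47 CPM (-0.17, adjusted p = 0.0373). ID3 did not pass with any of Ctrl. replicates 1 to 3 and 20 nM replicates 1 and 2 left out (highest adjusted p 0.137). Every 20 nM library of both lay below all other libraries. The share of all genes with this order was not computed, while 13.7% had every 20 nM library below all controls.

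Among 23 partners and inhibitors of the factors, 21 were measured. At 20 nM 2 rose and 3 fell (23.8%, against 13.9% of all genes), with a median of -0.10. With the block 1 rose and 2 fell (14.3%, against 13.6% of all genes). The count was 3 with any of Ctrl. replicates 1 and 2 and 20 nM replicates 1 and 2 left out. LMO3, ID1 and ID3 belong to this list too. HDAC1, a histone deacetylase of corepressor complexes, was at 68.4 ± 3.94 CPM in Ctrl., 72.0 ± 0.803 at 10 nM and 94.1 ± 16.2 at 20 nM (0.29, adjusted p = 0.00702), with 81.9, 87.9 and 112.5 CPM in the 20 nM libraries.

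All 11 genes of the MAX network were measured. At 20 nM 2 rose and 1 fell (27.3%, against 13.9% of all genes), with a median of -0.03. Without 20 nM replicate 1 or 2, 1 passed. MAX, the obligate partner of MYC proteins, was lower than the control of the same number in 6 of 6 libraries (-0.24, adjusted p = 0.0181), but did not pass with the block (-0.15, adjusted p = 0.150) or without Ctrl. replicate 2, 20 nM replicate 1 or 20 nM replicate 2 (highest adjusted p 0.142). MLX, which binds MXD and MLXIP proteins, rose from 50.2 ± 2.81 to 63.4 ± 1.56 CPM (0.32, adjusted p = 0.00415). MXD4, a MAX-bound antagonist of MYC, rose from 142 ± 7.90 to 173 ± 16.1 CPM (0.20, adjusted p = 0.0420), but did not pass with any of Ctrl. replicates 1 and 3, 10 nM replicate 2 and 20 nM replicates 1 and 2 left out (highest adjusted p 0.162). Of 12 genes of MYC protein turnover, 1 fell at 20 nM (8.33%, against 13.9% of all genes, median -0.04). It was FBXW7, the ubiquitin ligase subunit that recognises MYC, at 31.5 ± 0.904 CPM in Ctrl. and 26.9 ± 1.92 CPM at 20 nM (-0.29, adjusted p = 0.0164), with an adjusted p of 0.0614 with the block and at most 0.129 without 20 nM replicate 1 or Ctrl. replicate 3, which ended the call. The count was 2 without Ctrl. replicate 1 or 20 nM replicate 3 and 0 without Ctrl. replicate 3.

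The 20 MYC family target genes were all measured. At 20 nM 2 rose and 1 fell (15%, against 13.9% of all genes), with a median of 0.09. The count was 1 without 20 nM replicate 2 and 5 without 20 nM replicate 3. In the concentration trend 6 rose and 1 fell (35%, against 17.5% of all genes). With the block 5 rose and 0 fell in the trend (25%), where 2444 of all 14943 genes passed. Without surrogate variables or block 2 rose and 0 fell (10%), where 1236 of all genes passed. LDHA, lactate dehydrogenase A, rose without overlap between the groups, with means of 441 ± 17.9, 477 ± 23.4 and 541 ± 13.1 CPM in Ctrl., 10 nM and 20 nM (0.29, adjusted p = 0.00368). CAD, an enzyme of pyrimidine synthesis, did so too, from 200.2 ± 5.85 to 212 ± 3.02 and 231 ± 9.38 CPM (0.17, adjusted p = 0.0253), but did not pass with any of Ctrl. replicates 1 and 3 and 20 nM replicates 1 and 2 left out (highest adjusted p 0.097). MCM7, a subunit of the replicative helicase, fell by the model (-0.29, adjusted p = 0.00575) but not with the block (-0.14, adjusted p = 0.320) and not without 20 nM replicate 2 (adjusted p = 0.0548). At 10 nM, 0 of the 152 genes of all lists passed by edgeR, against 0.649% of all genes. Of the 152, 27 had an unadjusted p under 0.05, against 2084 of all 14943 genes. The DESeq2 Wald test called 8 of the 152 and 218 of all genes. Of the 13 markers of other cells, 1 passed at 20 nM (7.69%, against 13.9% of all genes). It was LUM, a fibroblast matrix protein (0.56, adjusted p = 0.00969, and -0.01 with the block). The part of these markers in the changes of the lists was not tested.

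By pattern over the 9 libraries, the genes nearest to each factor were found among 10509 genes of at least 10 CPM, by the root mean square difference of centred log2 CPM. For ISL1 they were ZNF664 (0.037) and TTL (0.039), and for MYCN LRFN1 (0.124) and MAGEA2B (0.128), a gene with a near-identical copy whose count is uncertain. For PHOX2A they were CTU1 (0.022) and DDX27 (0.028), for HAND2 OSBPL1A (0.021) and SLC37A3 (0.027), for GATA2 MAP7D1 (0.019) and NT5DC2 (0.021), and for GATA3 CASP2 (0.034) and RNFT2 (0.040). For TBX2 they were SLC25A23 (0.032) and ALKBH5 (0.035), and for MYC C1QTNF6 (0.039) and EFNA4 (0.042). None of these 16 is another of the 8 factors.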

How the data were processed

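SH-Sy5y cells with Ctrl., 10 nM or 20 nM of miR-1229-3p mimic were grouped, and their replicate numbers taken, from the sample titles. The authors mapped polyA reads with salmon onto GRCh38.p13 (Ensembl annotation 107), summed them by symbol and filtered by expression. The deposited file used here gives estimated counts for 14943 genes, 88.8% of them not whole, and whether strand was used is not given in the sources used here. The authors' deposited tables of log2 fold changes and p-values, and of values corrected for surrogate variables, were not used.

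Counts were rounded for edgeR 4.0.16 under R 4.3.3 (TMM, quasi-likelihood test, Benjamini-Hochberg). filterByExpr removed 0 further genes. Surrogate variables came from sva 3.50.0 (num.sv, method be, seed 1, held between 1 and 3), 1 of them in the group model and 2 in the concentration model. DESeq2 1.42.0 was an alternative. Per-length levels, positions and 3′ UTRs came from GENCODE 44, which matched 14105 genes by identifier and 754 by symbol, with 84 left.

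All within-group pairs of libraries differed by more than sampling noise. Deviations from group means correlated at 0.142 to 0.185 between Ctrl. and 10 nM libraries of the same number, at 0.107 to 0.116 between Ctrl. and 20 nM, and at 0.0288 to 0.176 between 10 and 20 nM. The reported fits hold surrogate variables and no term for the replicate number. The numbers were taken to pair Ctrl. with each mimic group, on the data alone, so the fit with a replicate block in place of the surrogate variables is given beside a result where it changes the call.

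Genes described singly were the 8 factors, their measured paralogues, per list at most 3 genes of smallest adjusted p at 20 nM (past 0.05, mean of at least 1 CPM) and the 2 genes nearest in pattern to each factor, apart from fixed markers. Members and lists were chosen with earlier results of these data known. The 9 listed antisense and divergent neighbours were not analysed here, and a further listed gene is not reported here. Alternatives changed the surrogate variables, scaling, filter, tool, libraries and transcript length. Since filterByExpr removed 0 genes, the alternative that left it out repeats the reported fit and could not differ. It is included in all counts of alternatives. Python 3.11.15, pandas 2.3.3, numpy 2.4.6 and matplotlib 3.10.9 were used.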

Additional observations from a re-analysis of the deposited data

Results flagged for a closer look

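None of the 8 factors differed between the 20 nM and 10 nM groups past the threshold. Among the genes named beside them, 4 did, by edgeR's adjusted p on the contrast of the mimic groups. With the factors, 32 named genes were tested, and 2.79% of all genes passed this contrast. All 4 had been picked for a small adjusted p at 20 nM against Ctrl., which uses the same 20 nM libraries. Their count is therefore not independent of that choice. SOX4 had a log2 change of -0.19 at 10 nM and -0.48 at 20 nM, a difference of -0.30 (adjusted p = 0.0133, past the threshold in 15 of 19 alternatives, with 5.63e-06 to 0.261). ID1 had log2 changes of 0.02 and -0.25, a difference of -0.27 (0.00632, 17 of 19, 5.48e-05 to 0.0683). ID3 had log2 changes of 0.05 and -0.17, a difference of -0.23 (0.0234, 13 of 19, 0.000197 to 0.181). HDAC1 had log2 changes of 0.03 and 0.29, a difference of 0.26 (0.0324, 10 of 19, 0.00452 to 0.197). With the replicate block the difference of ID1 passed (adjusted p = 0.0392) and those of SOX4 (0.160), ID3 (0.0855) and HDAC1 (0.158) did not. Without surrogate variables none of the 4 passed (0.0683 to 0.261). Leaving out 20 nM replicate 1 ended the call for all 4, and the other single libraries whose removal did so were any other mimic library or Ctrl. replicate 1 for HDAC1, 10 nM replicates 1 and 2 and 20 nM replicate 2 for ID3, and 10 nM replicate 2 for SOX4.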

How the results depend on the processing

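Of the values of single factors under alternatives, 403 kept direction and side of the threshold, 9 came to pass, 11 no longer passed and 24 changed sign, none of the last past the threshold. For the other named genes at 20 nM, 402 kept both, 11 came to pass and 40 no longer passed. The count of factors past the threshold at 20 nM (1) was 2 with the replicate block in place of the surrogate variables, 2 with only the groups compared, 0 to 2 with a library left out (0 without 20 nM replicate 2) and 3 without 20 nM replicate 3 and with the number of surrogate variables estimated anew. Without surrogate variables, genes past the threshold at 20 nM numbered 0 paralogues (1 as reported), 2 other noradrenergic factors (9), 1 mesenchymal factor (4), 7 output genes (8), 2 partners (5), 1 MAX network gene (3), 0 turnover genes (1) and 1 MYC target (3), and when estimated anew 4, 14, 6, 14, 11, 5, 4 and 10. At 10 nM, the count of factors (0) was 1 with only the groups compared (ISL1) and 2 when estimated anew (ISL1 and TBX2). In the concentration trend (2) it was 1 with DESeq2 size factors, with library totals alone, with the DESeq2 Wald test, with genes under a mean of 1 CPM removed and when estimated anew, and 1 to 3 with a library left out. The adjusted p of MYCN in the trend was 0.0516 with DESeq2 size factors, 0.0608 with library totals, 0.0718 with the DESeq2 Wald test and 0.119 with a mean of at least 1 CPM. PHOX2A passed in the trend (0.0211) without 20 nM replicate 1, and GATA3 at 20 nM (0.00490) when estimated anew.

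Over all genes, the count at 10 nM (97) was 5 without surrogate variables, 3 with the replicate block, 218 with DESeq2, 303 with only the groups compared, 34 to 160 with a library left out and 1318 when estimated anew. At 20 nM (2074) it was 954 without surrogate variables, 1074 (without 20 nM replicate 2) to 2656 with a library left out, with 1321 without 20 nM replicate 1, and 4370 when estimated anew. Between 20 and 10 nM (417) it was 67 without surrogate variables, 124 with the block, 111 to 462 with a library left out and 1495 when estimated anew. In the trend (2620) it was 1236 without surrogate variables and 1668 (without 20 nM replicate 2) to 3970 (without 20 nM replicate 1) with a library left out. The cause was not tested. Beyond the values given beside the results, the block changed no call of a factor.

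The sign of these log2 changes turned, none past the threshold. At 10 nM, HAND2 ran from -0.0013 to 0.10 and MYC from -0.062 to 0.12 with a library left out. At 20 nM, PHOX2A was -0.0038 and MYC -0.034 with 1 more surrogate variable, and with a library left out they ran from -0.034 to 0.14 and from -0.074 to 0.14. GATA2 at 20 nM was 0.094 without surrogate variables, 0.088 with the block, 0.0052 with only the groups compared and -0.064 to 0.00013 with a library left out. In the trend, PHOX2A was -0.0033, GATA2 -0.016 and MYC -0.026 with genes under a mean of 1 CPM removed. GATA2 there was -0.012 with library totals and -0.031 when estimated anew. With a library left out, the trend ran from -0.0093 to 0.21 for PHOX2A, from -0.0051 to 0.11 for HAND2, from -0.031 to 0.095 for GATA2 and from -0.078 to 0.13 for MYC. Per kilobase of the canonical transcript, an alternative chosen after the data were seen, GATA2 was at 331 and TBX2 at 83.2 CPM. MYCN rests on 79 to 201 counts per library, and its adjusted p at 10 nM is not given by DESeq2.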
